A study of Mus musculus with 12 samples.

Results

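The proteasome is the barrel-shaped protease that degrades most short-lived and damaged proteins of a cell after they have been tagged with ubiquitin. Its core is built of alpha rings (*Psma* genes), which gate the entrance, and beta rings (*Psmb* genes), of which *Psmb5*, *Psmb6* and *Psmb7* encode the cutting subunits. A regulatory particle of ATPases (*Psmc* genes) and non-ATPase base and lid subunits (*Psmd* genes) binds, deubiquitinates and unfolds the substrate, while activators (*Psme* genes) open the core without ubiquitin. In cells exposed to interferon the immunoproteasome replaces the constitutive cutting subunits, *Psmb10* taking the place of *Psmb7*; neurons mostly use the constitutive form, and microglia hold much of the inducible form in brain.

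The genes described here are those on the array whose name starts with Psma, Psmb, Psmc, Psmd, Psme or Psmf and a digit, without *Psmb8* and *Psmb9*. They comprise 44 genes with 55 probes in 64 spots, of 29608 genes, 39429 probes and 43020 spots in all. Of these, 14 encode core subunits and 17 encode regulatory particle subunits. The names of 2 others, *Psmc3ip* and *Psme3ip1*, match although they encode no proteasome subunit, and they stand apart below. No probe carries the name *Psme2*. A spot was valid in all 12 mice for 33 of the 44 genes, 13 of the core and 15 of the regulatory particle, which are the ones tested among 8864 genes.

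Hippocampal RNA of 12 female mice, about 12 weeks old, was measured on 6 Agilent arrays of 60-base probes, with 4 mice in each of 3 phenotypes. MRL/lpr mice carry a loss-of-function mutation of *Fas* on the MRL background and develop lupus-like disease with behavioral changes. Fn14ko mice carry the same *Fas* mutation and background together with a knockout of *Tnfrsf12a*, the receptor Fn14 of the cytokine TWEAK, whereas MRL/+ mice are the MRL background without the *Fas* mutation. The first 2 phenotypes were bred at the same place as littermates, and MRL/+ mice were purchased elsewhere, so source and *Fas* genotype cannot be told apart between them. Each array took 2 mice of 1 phenotype, odd replicates in Cy3 and even ones in Cy5, and each phenotype lay on its own slide, so slide and phenotype cannot be told apart either. The free text of the sample records also mentions cortex, while tissue and source give hippocampus for all 12. The genotype is given as labelled, because the single *Tnfrsf12a* probe exceeded background clearly in each of the 4 mice labelled Fn14ko, with levels of 0.177, 0.160, 0.189 and 0.151 with no filter on spots. The same probe gave 0.439, 0.307, 0.241 and 0.247 in MRL/lpr and 0.283, 0.629, 0.503 and 0.502 in MRL/+.

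A level below is a multiple of the median of its channel (the signal of 1 dye on 1 array), after subtraction of local background, and a difference is on the log2 scale of those levels. MRL/lpr replicates 3 and 4 shared an array whose channel medians were 169.7 and 74.71, compared with 684.3 to 4545 in the other 10 mice, and 47 and 33 of the 64 spots of these genes were well above background there, compared with 51 to 62. It is called the weak array, and differences it moves are also given without it. Negative controls of MRL/+ mice 2 and 4, both in Cy5, reached 0.255 and 0.187 of the channel median, in contrast to 0.00329 and 0.00332 in the Cy3 mice of the same arrays. Those of the weak array were at 0.0721 in replicate 3 and 0.341 in replicate 4. No spot of these genes was saturated. The samples were whole pieces of tissue, so fewer cells of a type and less RNA per cell cannot be told apart.

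Promoters are shown first, since a motif was shared by most regulatory particle genes. RefSeq (GRCm38.p6) gave a promoter for 37 of the 44 genes, and the 250 bases before each start were searched on both strands. CGGAAG, the core bound by ETS factors, was present in 19 of 37 (51.4%), compared with 15.3% of 27025 genes. By class, it was found in 12 of 14 regulatory particle genes (85.7%) and in 3 of 11 core genes (27.3%). The windows below hold 1 ATPase gene with a valid probe (*Psmc1*), 1 without (*Psmc6*), base and lid genes of the regulatory particle, among them *Psmd11* with the motif nearest to its start, and the inducible *Psmb10*. Capitals mark CGGAAG or its reverse complement CTTCCG, and in *Psmb10*, which lacks it, the E-box CACGTG.
Psmc1, chr12:100110086-100110123, plus strand: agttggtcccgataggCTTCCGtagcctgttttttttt
Psmc6, chr14:45329709-45329746, plus strand: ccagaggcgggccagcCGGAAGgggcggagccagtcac
Psmd2, chr16:20651610-20651647, plus strand: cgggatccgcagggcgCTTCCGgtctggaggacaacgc
Psmd4, chr3:95042717-95042754, minus strand: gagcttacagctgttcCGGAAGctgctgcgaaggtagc
Psmd11, chr11:80428588-80428614, plus strand: gaacgcgagggcgggtCTTCCGggtgt
Psmd14, chr2:61711564-61711601, plus strand: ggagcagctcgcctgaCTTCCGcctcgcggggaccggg
Psmb10, chr8:105938487-105938524, minus strand: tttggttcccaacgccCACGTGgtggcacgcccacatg

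The motif lay 94, 93, 20, 118, 5 and 108 bases before the start in the order printed for the regulatory particle, so its distance was not shared. Of the 6 motifs searched, the other 5 gave smaller contrasts with all promoters. CCAAT was in 40.5% of these genes and 37.5% of all, the antioxidant response core TGACNNNGC in 13.5% and 11.5%, and CACGTG in 13.5% and 6.86%. TGCGCA, part of the site of nuclear respiratory factor 1, was in 16.2% of these genes and 7.36% of all, and in 4 of 11 core genes. TATAAA was in 8.11% and 14.3%. The median GC content of the windows was 56.4%, compared with 52.4% over all genes, and whether base composition accounts for any of these shares was not tested.

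Some of the 60-base probes behind the levels are printed here, with the mm9 positions of the array files. That of *Psmb10* is not among them. The level of *Psmb5* is the mean of 2 probes, of which the dimmer is printed, at 4.18 compared with 13.5 in MRL/lpr replicate 1. The files name no exon, but the genomic span of the *Psmb7* probe, 20420 bases, and of the *Psmc5* probe, 185 bases, exceeds 60, so both cross a splice junction. Capitals in *Psmc5* mark the closing TGA, a stop codon.
Psmb5, chr14:55233161-55233220, minus strand: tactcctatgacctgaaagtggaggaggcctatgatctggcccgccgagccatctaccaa
Psmb7, chr2:38468966-38489385, minus strand: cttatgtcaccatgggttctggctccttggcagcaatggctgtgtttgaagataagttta
Psmd14, chr2:61599058-61599117, plus strand: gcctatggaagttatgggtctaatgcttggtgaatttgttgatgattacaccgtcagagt
Psmd5, chr2:34708108-34708167, minus strand: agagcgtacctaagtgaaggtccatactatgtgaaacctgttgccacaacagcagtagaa
Psmc5, chr11:106124192-106124376, plus strand: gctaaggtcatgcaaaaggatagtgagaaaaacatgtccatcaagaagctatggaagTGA

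The main pattern among the proteasome genes was a lower level on the weak array. Of the 33 genes, 25 (75.8%) were lower in both mice of that array than in both other MRL/lpr mice, with a median difference of −1.12 on the log2 scale. Over all 8864 genes, 40.8% were lower in both and the median difference was 0.03. The shift followed the level of a gene: of genes above the channel median in the 8 Fn14ko and MRL/+ mice, 24 of 29 proteasome genes (82.8%) and 70.7% of all genes were lower in both, with medians of −1.13 and −0.94. Among genes at or below the channel median, 1 of 4 proteasome genes and 12.5% of all were. By class, the median differences were −2.16 for the non-ATPase base, −1.42 for the lid, −1.14 for core beta, −1.12 for the ATPases and −0.74 for core alpha. *Psmb1*, *Psmb6*, *Psmc1*, *Psmd14*, *Psmd5* and *Psme3* were instead higher in both weak-array mice, the last by 3.47. The part of signal strength in this pattern was not tested.

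**Figure D1:**
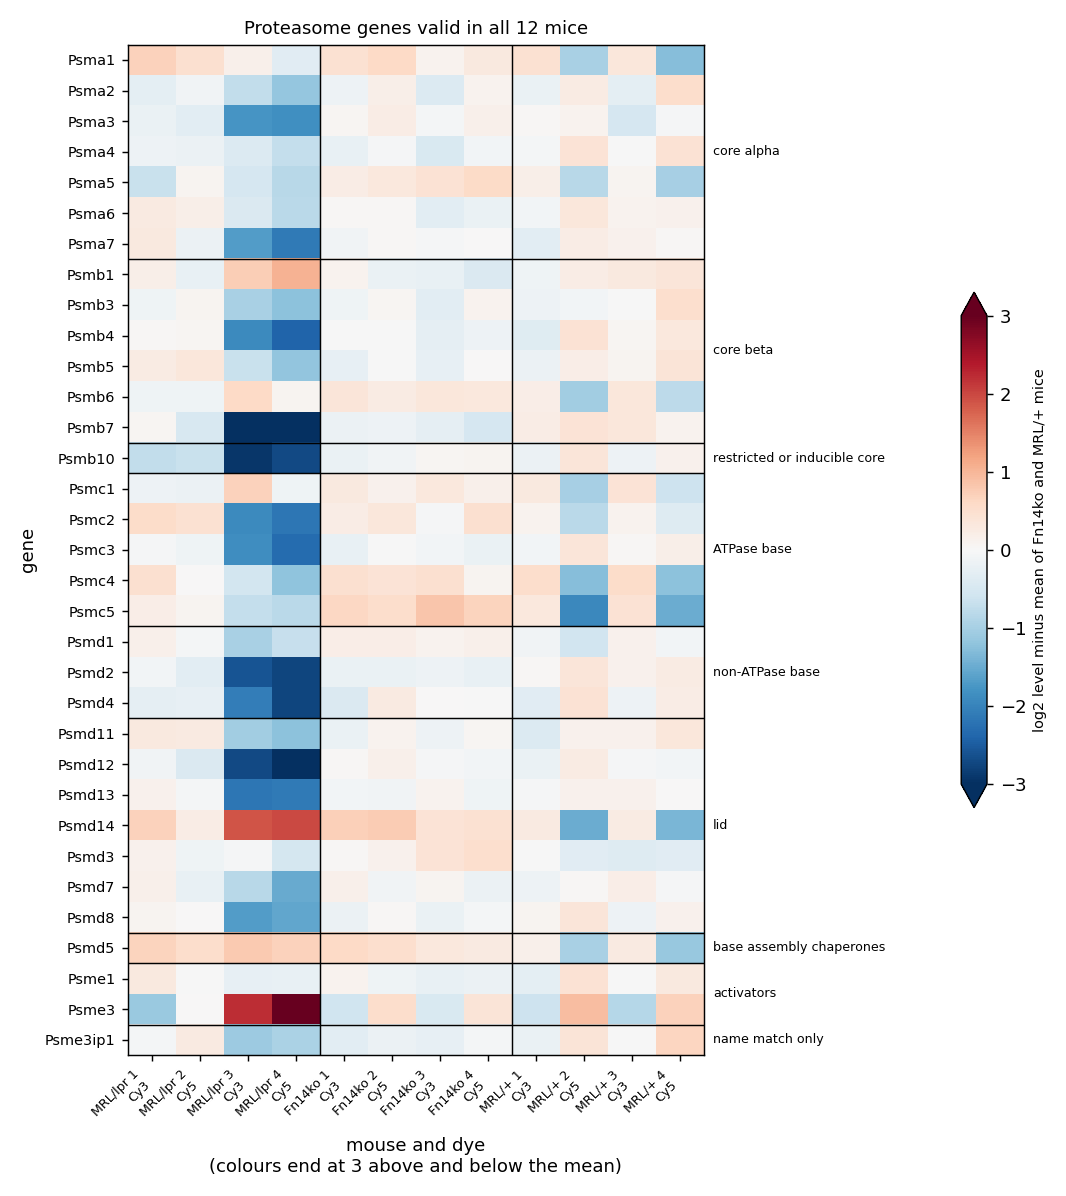
Log2 level of each of the 33 genes (rows, by class) in each of the 12 mice (columns, with dye), minus the gene's mean over the 8 Fn14ko and MRL/+ mice. Blue cells at MRL/lpr 3 and 4 show most of the 25 genes lower on the weak array than in the other MRL/lpr mice. Red cells there include most of the 6 genes higher in both of its mice (*Psmb1*, *Psmb6*, *Psmc1*, *Psmd14*, *Psmd5* and *Psme3*). Since colours are relative to the Fn14ko and MRL/+ mice, *Psmc1* in MRL/lpr 4 is not red and *Psma1* in MRL/lpr 3 is not blue. Blue cells at MRL/+ 2 and 4 mark genes lower in the Cy5 mouse of each MRL/+ array.

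The first comparison, MRL/lpr against MRL/+, asks how hippocampal expression differs with lupus-like disease. By limma with Benjamini-Hochberg adjustment over 8864 genes, 3 of the 33 proteasome genes differed, *Psmb10* being lower and *Psmd14* and *Psmd5* higher in MRL/lpr. Over all genes 9.17% passed the same test, 3.46% higher and 5.71% lower, so the share of proteasome genes was near the background. An unadjusted p under 0.05 was reached by 15 of 33, compared with 36.6% of all genes. The groups did not overlap for 5 genes, 1 higher (*Psmd5*) and 4 lower (*Psma4*, *Psmb7*, *Psmb10* and *Psmd2*), or 15.2%, compared with 16.1% of all genes, 4.58% higher and 11.6% lower.

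*Psmb10* encodes the inducible cutting subunit that takes the place of *Psmb7* in the immunoproteasome. Its level was 2.73, 2.85, 0.602 and 0.693 in MRL/lpr replicates 1 to 4, 3.93, 4.22, 4.69 and 4.83 in mice labelled Fn14ko, and 4.05, 5.79, 4.07 and 4.99 in MRL/+. Every MRL/lpr mouse was below all 8 other mice, the weak-array mice farthest. The difference from MRL/+ was −1.80 ± 0.48 (SE; limma adjusted p = 0.0408; two-sided exact permutation p = 0.0286, the smallest that 4 against 4 mice can give). Without the weak array it was −0.74, with 2 MRL/lpr mice left and an adjusted p of 0.0141. With array as a random block the adjusted p was 0.2498, a fit in which 0.079% of all genes passed, and leaving out 1 mouse in turn kept it under 0.05 in 2 of 12 cases, with differences of −2.22 to −1.40. Of 7 markers of microglia, 5 were valid in all 12 mice. Among these, *Cx3cr1*, a chemokine receptor, was also lower in MRL/lpr than in MRL/+, with a difference of −1.02 (limma adjusted p = 0.0454). The median of the 5 was −1.02, or −0.50 without the weak array. With no filter, the remaining markers *Aif1* and *C1qb* differed by −0.32 and 0.15. Relative to mice labelled Fn14ko the median of the 5 was −0.49, or −0.06 without the weak array. The part of microglia in the difference of *Psmb10* was not tested.

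*Psmd14* encodes the lid's deubiquitinase, which removes ubiquitin chains from the substrate before it enters the core. Its level was 0.875, 0.628, 1.98 and 2.12 in MRL/lpr, 0.889, 0.911, 0.710 and 0.738 in mice labelled Fn14ko, and 0.646, 0.190, 0.638 and 0.209 in MRL/+. The weak-array mice were the highest and the Cy5 mice of MRL/+ the lowest, and MRL/lpr replicate 2 lay below both Cy3 mice of MRL/+. The difference was 1.78 ± 0.45 (SE; limma adjusted p = 0.0363; exact permutation p = 0.0857). It was 1.05 without the weak array, with an adjusted p of 0.0659, and 1.03 among Cy3 mice and 2.53 among Cy5 mice. In MRL/+, 2 of 4 mice had a spot well above background, and the levels of the other 2, both in Cy5, lay near those of the negative controls given above, whose part was not tested.

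*Psmd5* encodes a chaperone that helps assemble the ATPase ring and is not kept in the finished particle. Its level was 0.738, 0.672, 0.807 and 0.752 in MRL/lpr, 0.710, 0.659, 0.579 and 0.560 in mice labelled Fn14ko, and 0.519, 0.238, 0.566 and 0.211 in MRL/+. All MRL/lpr mice were above all MRL/+ mice, and the weak-array mice did not stand apart from the other 2. The difference was 1.09 ± 0.28 (SE; limma adjusted p = 0.0365; exact permutation p = 0.0286), and 1.02 without the weak array (adjusted p = 0.0350). It was 0.51 among Cy3 mice and 1.67 among Cy5 mice, and again only the Cy3 mice of MRL/+ had a spot well above background, the Cy5 levels lying near the negative controls. With array as a random block the adjusted p was 0.3306 for *Psmd5* and 0.2941 for *Psmd14*.

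**Figure D2:**
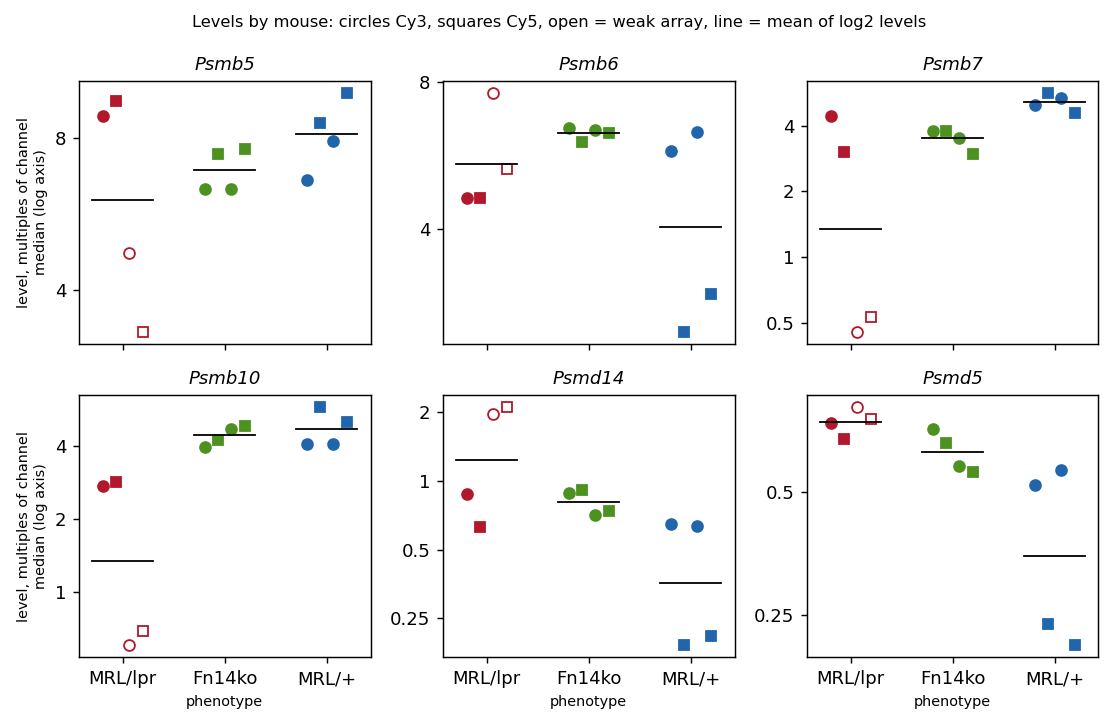
Levels of the constitutive cutting subunits *Psmb5*, *Psmb6* and *Psmb7* and of the 3 genes past the threshold, in multiples of the channel median on a log axis, 1 symbol for each of the 4 mice of a phenotype; the line is the mean of log2 levels. *Psmb10* in MRL/lpr lies below the other 8 mice with and without the weak array (open symbols), whereas *Psmb7* falls below 1 only on it, and the MRL/+ Cy5 mice (squares) are lowest for *Psmb6*, *Psmd14* and *Psmd5*.

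None of the constitutive cutting subunits passed the threshold between MRL/lpr and MRL/+. *Psmb7*, the trypsin-like subunit that *Psmb10* replaces, had levels of 4.40, 3.03, 0.457 and 0.536 in MRL/lpr, 3.76, 3.80, 3.53 and 2.98 in mice labelled Fn14ko and 4.97, 5.63, 5.36 and 4.57 in MRL/+. The groups MRL/lpr and MRL/+ did not overlap, but the difference of −1.93 ± 0.63 (SE) had an adjusted p of 0.0701 and shrank to −0.49 (adjusted p = 0.0882) without the weak array. *Psmb5*, the chymotrypsin-like subunit, was at 8.85, 9.48, 4.75 and 3.31 in MRL/lpr, 6.35, 7.45, 6.35 and 7.61 in mice labelled Fn14ko and 6.62, 8.59, 7.91 and 9.84 in MRL/+. Its difference was −0.44 with and 0.17 without the weak array, neither past the threshold. *Psmb6*, the caspase-like subunit, was at 4.62, 4.63, 7.60 and 5.30 in MRL/lpr, at 6.45, 6.01, 6.39 and 6.30 in mice labelled Fn14ko, and at 5.78, 2.45, 6.33 and 2.94 in MRL/+. Its difference between MRL/lpr and MRL/+ was 0.43 (adjusted p = 0.27), and the groups overlapped.

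By class, 0 of 7 core alpha, 0 of 6 core beta and 0 of 5 ATPase genes passed limma's adjusted threshold in this comparison, while 3, 2 and 1 of them had an unadjusted p under 0.05. Core alpha differences ranged from −0.94 (*Psma7*) to 0.61 (*Psma1*), with a median of −0.55. Core beta genes ranged from −1.93 (*Psmb7*) to 0.43 (*Psmb6*), the ATPases from −1.21 (*Psmc3*) to 0.35 (*Psmc5*) and the 7 lid genes from −1.54 (*Psmd12*) to 1.78 (*Psmd14*). Without the weak array the ranges were −0.36 to 0.95 for core alpha and −0.49 to 0.20 for core beta. They were then −0.21 to 0.80 for the ATPases and −0.25 to 1.05 for the lid. *Psmd4*, a ubiquitin receptor of the base, was at 6.21, 6.32, 1.78 and 1.11 in MRL/lpr, 5.54, 9.05, 7.56 and 7.37 in mice labelled Fn14ko and 5.86, 10.1, 6.70 and 8.78 in MRL/+. Its difference from MRL/+ was −1.37 ± 0.52 (SE; adjusted p = 0.0906) and −0.29 without the weak array. Over the 33 genes the median difference was −0.52, compared with −0.01 over all genes, and 23 were below 0, compared with 50.4% of all genes. Without the weak array the median was −0.03, against −0.16 over all genes, and 2 genes were past the threshold (*Psmb10* and *Psmd5*), compared with 18.1% of all genes. Among the spots valid in the other 10 mice, *Psmb10* alone of 41 genes was, compared with 15.7% of all.

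**Figure D3:**
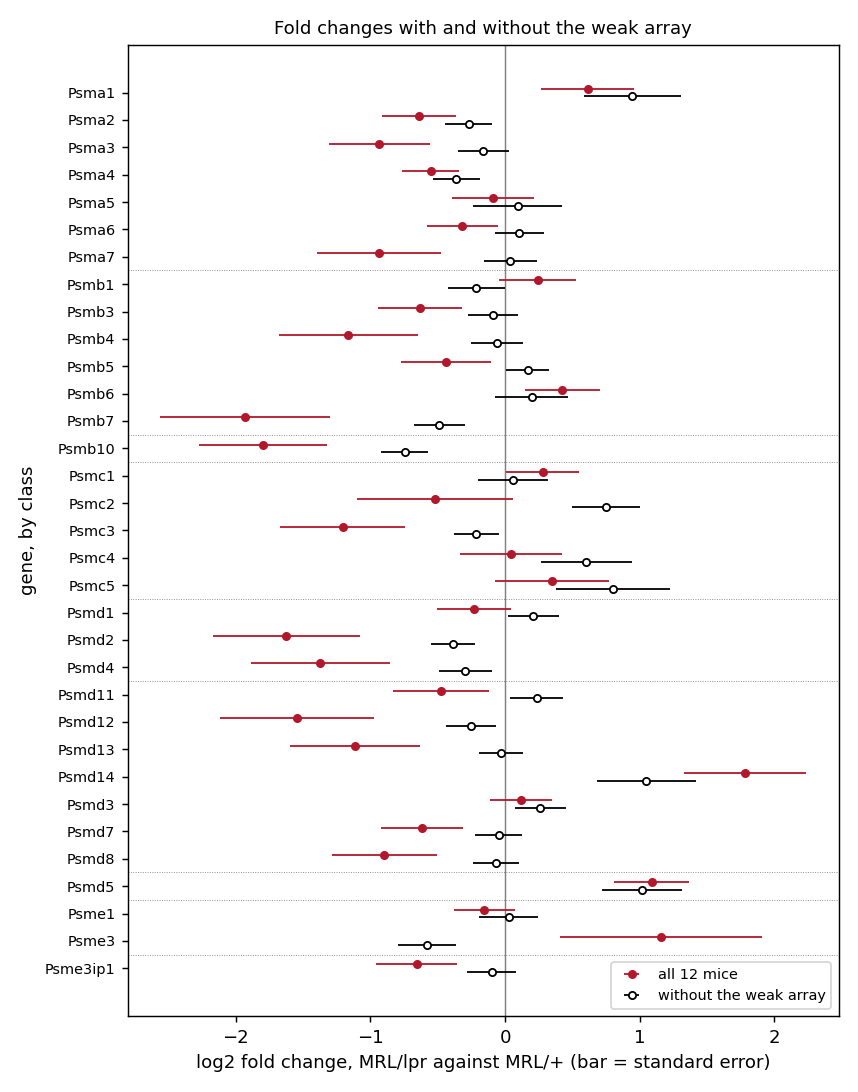
Difference between MRL/lpr and MRL/+ (log2, bar = standard error) for the 33 genes by class, with all 12 mice (filled) and without the weak array (open). The median moves from −0.52 to −0.03, and *Psmb10* and *Psmd5* keep their direction and stay past the threshold.

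Probes of a gene did not always move together. The probes of *Psma4* differed by 0.07 and −1.08 between MRL/lpr and MRL/+, and those of *Psmc2*, which start 10 bases apart on the transcript, by −0.15 and −1.14. In contrast, both *Psmb5* probes and both *Psmc3* probes went the same way in that comparison, at −0.10 and −0.56 and at −1.63 and −1.01. Levels are not compared between genes here, since each probe has its own brightness.

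Comparison of MRL/lpr with mice labelled Fn14ko addresses what the loss of Fn14 does on the lupus background. None of the 33 proteasome genes passed the adjusted threshold of limma, compared with 3.98% of all genes, and 7 had an unadjusted p under 0.05, compared with 36.2% of all genes. The groups did not overlap for 5 genes, all lower in MRL/lpr (*Psma3*, *Psma5*, *Psmb10*, *Psmc5* and *Psmd12*), or 15.2%, compared with 21.5% of all genes and 10.3% lower. *Psmb10* was nearest to the threshold, at −1.71 ± 0.48 (SE; adjusted p = 0.0619; exact permutation p = 0.0286). Without the weak array its difference was −0.66 with an adjusted p of 0.0436, and it was then the only one of the 33 past the threshold, compared with 7.22% of all genes. *Psme3*, the nuclear activator subunit PA28 gamma, was also lower among spots valid in the 10 other mice (−0.60, adjusted p = 0.0384), where it and *Psmb10* were the 2 proteasome genes past the threshold, compared with 9.12% of all genes; with the weak array included its difference was 1.22. Of the 33 genes, 28 were below 0 and the median was −0.55, compared with 48.7% and 0.03 over all genes; without the weak array the medians were 0.02 for both.

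*Psma5*, an alpha ring subunit, was at 1.44, 2.44, 1.63 and 1.29 in MRL/lpr and at 2.70, 2.85, 3.11 and 3.44 in mice labelled Fn14ko, a difference of −0.87 (adjusted p = 0.0943) that was −0.68 without the weak array. *Psmc5*, an ATPase of the base, was at 3.43, 3.14, 1.81 and 1.70 in MRL/lpr and at 4.62, 4.33, 5.31 and 4.76 in mice labelled Fn14ko. All MRL/lpr mice lay below all mice labelled Fn14ko for both genes, whichever array they were on, but neither difference passed the threshold. That of *Psmc5* was −0.98 (adjusted p = 0.1278), and −0.53 without the weak array.

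Between mice labelled Fn14ko and MRL/+, both free of the weak array, none of the 33 genes passed the threshold of limma with the spread estimated over all 12 mice, compared with 0.519% of all genes, and 6 had an unadjusted p under 0.05, compared with 15.3%. When the weak array was left out, the spread fell and 7 genes passed, compared with 28.1% of all genes. Of them, 6 were higher in mice labelled Fn14ko (*Psma5* by 0.78, *Psmb6* by 0.64, *Psmc5* by 1.33, *Psmd14* by 1.17, *Psmd3* by 0.54 and *Psmd5* by 0.84), compared with 9.78% of all genes higher. *Psmb7* was lower, at −0.55, compared with 18.4% of all genes lower. Taking the spots valid in those 10 mice, 5 of 41 genes passed (*Psma3*, *Psmc5*, *Psmd14*, *Psmd3* and *Psmd5*, all higher), compared with 21.1% of all genes. The groups did not overlap for 6 genes, 4 higher (*Psma5*, *Psmc5*, *Psmd14* and *Psmd3*) and 2 lower (*Psmb7* and *Psmd2*), or 18.2%, compared with 19.9% of all genes, 5.88% higher and 14.1% lower.

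*Psmc5* differed most, with 3.74, 0.788, 4.03 and 1.06 in MRL/+ against the 4.33 to 5.31 of mice labelled Fn14ko given above. The MRL/+ mice in Cy3 were close to that range, and those in Cy5 far below it, so that the difference was 0.35 among Cy3 mice and 2.31 among Cy5 mice. *Psma5*, *Psmb6*, *Psmd14* and *Psmd5* split in the same way. Their differences were 0.20, 0.09, 0.31 and 0.24 among Cy3 mice and 1.35, 1.20, 2.04 and 1.44 among Cy5 mice. *Psmd3*, a scaffold subunit of the lid, did not split by dye in this way. Its level was 7.16, 7.65, 9.26 and 9.83 in mice labelled Fn14ko and 6.96, 5.52, 5.31 and 5.54 in MRL/+, and its difference was 0.42 in Cy3 and 0.65 in Cy5. *Psmb7* likewise differed by −0.50 in Cy3 and −0.59 in Cy5.

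The difference between the 2 mice of an array set these genes apart from one another on the MRL/+ arrays. *Psma1*, *Psmb6*, *Psmc1*, *Psmc4*, *Psmc5*, *Psmd14* and *Psmd5* were lower by more than 1 on the log2 scale in the Cy5 mouse of both MRL/+ arrays, and none of the 7 was on any of the other 4 arrays. On the first and the second MRL/+ array, 7 and 8 of the 33 genes were below −1, compared with 8.7% and 8.9% of all genes. Gaps beyond 1 in either direction were seen in 8 and 9 of the 33, compared with 32.8% and 28.0% of all genes. Large gaps as such were thus not particular to the proteasome genes. The ATPases were split: *Psmc5* differed by −2.25 and −1.93, *Psmc4* by −1.81 and −1.78 and *Psmc1* by −1.28 and −1.03, whereas *Psmc3* differed by 0.43 and 0.13. Both Cy5 mice of MRL/+ had the low shares of spots well above background, 29.6% and 31.8%, next to 67.5% and 66.2% for the Cy3 mice of the same arrays, and the part of this in the gaps was not tested. Tested as a difference of gaps between MRL/+ and Fn14ko arrays, none of 8864 genes passed limma's adjusted threshold, and 6.63% had an unadjusted p under 0.05; *Psmc5* had a p of 0.00767 and an adjusted p of 0.3553. The gaps recurred on both MRL/+ arrays but cannot be told apart from a difference between the mice that happened to be in Cy5.

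**Figure D4:**
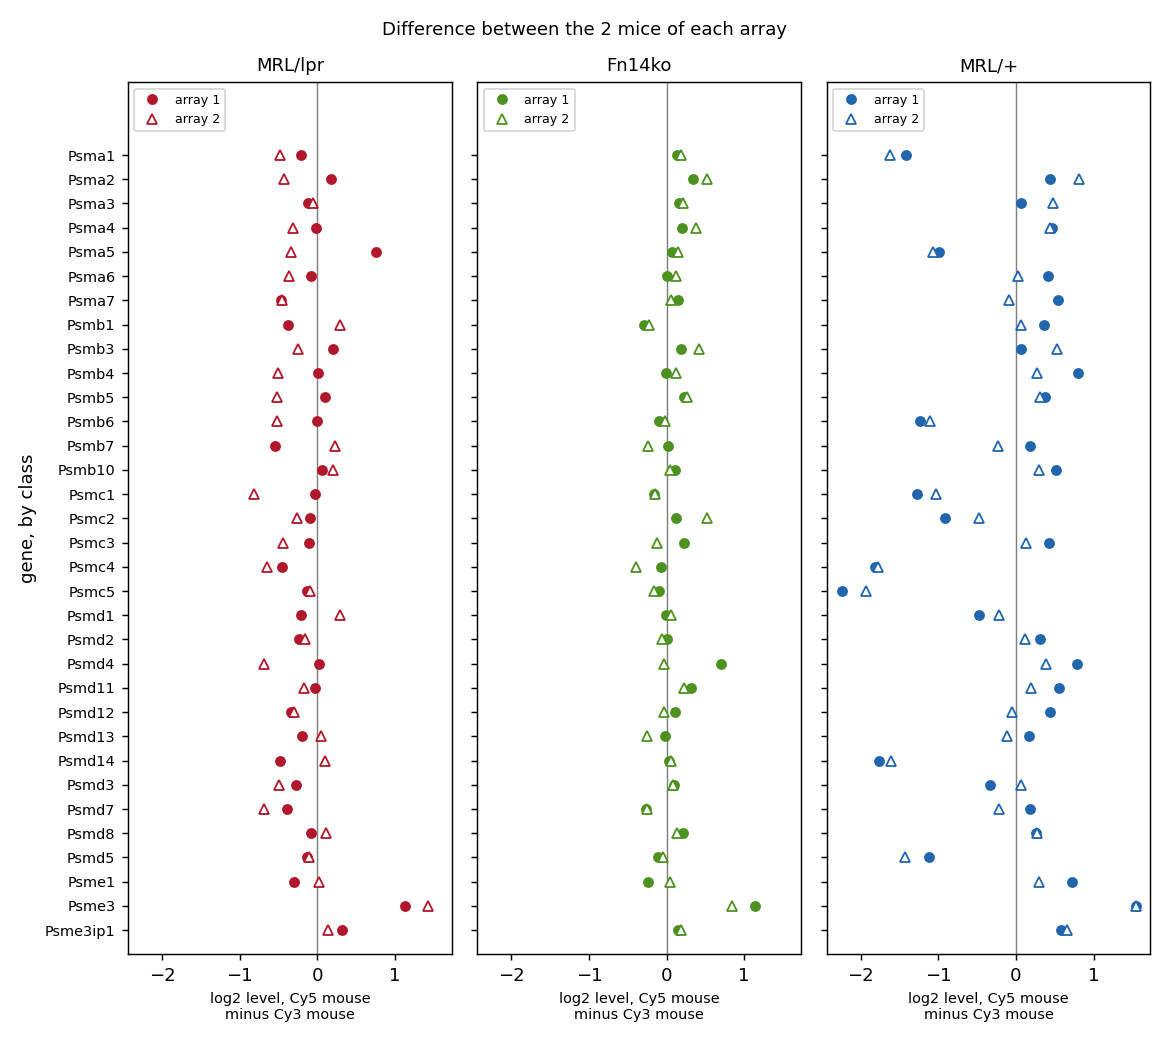
Log2 level of the Cy5 mouse minus that of the Cy3 mouse on each of the 2 arrays of a phenotype, for the 33 genes by class. Points lie within 1 of 0 on MRL/lpr and Fn14ko arrays except for *Psme3*, and 7 genes lie below −1 on both MRL/+ arrays.

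The regulatory particle lay low relative to the core both on the weak array and in the Cy5 mice of MRL/+. The mean log2 level of the 13 core genes was 1.71, 1.67, 0.87 and 0.59 in MRL/lpr, 1.72, 1.80, 1.57 and 1.72 in mice labelled Fn14ko and 1.67, 1.68, 1.77 and 1.68 in MRL/+. The mean of the 15 regulatory particle genes was 1.72, 1.52, 0.46 and 0.19 in MRL/lpr, 1.67, 1.75, 1.71 and 1.68 in mice labelled Fn14ko and 1.59, 1.21, 1.69 and 1.27 in MRL/+. The weak-array mice were thus lowest in both means, while the MRL/+ Cy5 mice were low in the mean of the regulatory particle and not in that of the core. Single genes did not follow this division. In the core, *Psma1* (−1.42 and −1.62) and *Psmb6* (−1.24 and −1.11) were lower in the Cy5 mouse of the MRL/+ arrays, and *Psmc3* of the regulatory particle was not (0.43 and 0.13). Core minus regulatory particle was 0.41 and 0.40 on the weak array and 0.46 and 0.41 in the MRL/+ Cy5 mice, compared with −0.14 to 0.15 in the other 8 mice. Within the regulatory particle of MRL/+, the gap in class means was largest in the ATPases, at 0.98 and 1.20 in Cy5 and 2.14 and 2.21 in Cy3. The lid was slightly lower in Cy5, at 0.98 and 0.92 compared with 1.05 and 1.13 in Cy3. Its gene *Psmd14* had gaps of −1.76 and −1.61. The non-ATPase base was not lower, at 2.16 and 2.22 in Cy5 and 1.95 and 2.12 in Cy3.

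Between phenotypes, the median difference of core and regulatory particle genes was −0.55 and −0.52 for MRL/lpr against MRL/+, −0.49 and −0.69 for MRL/lpr against mice labelled Fn14ko, and −0.14 and 0.04 for mice labelled Fn14ko against MRL/+. No core gene and 1 regulatory particle gene (*Psmd14*) passed limma's adjusted threshold in the first, with 5 and 7 at an unadjusted p under 0.05, and none passed in the other comparisons, with 2 and 4 and then 2 and 3 unadjusted. Without the weak array the medians were −0.06 and 0.06, 0.06 and −0.11, and −0.14 and 0.04.

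**Figure D5:**
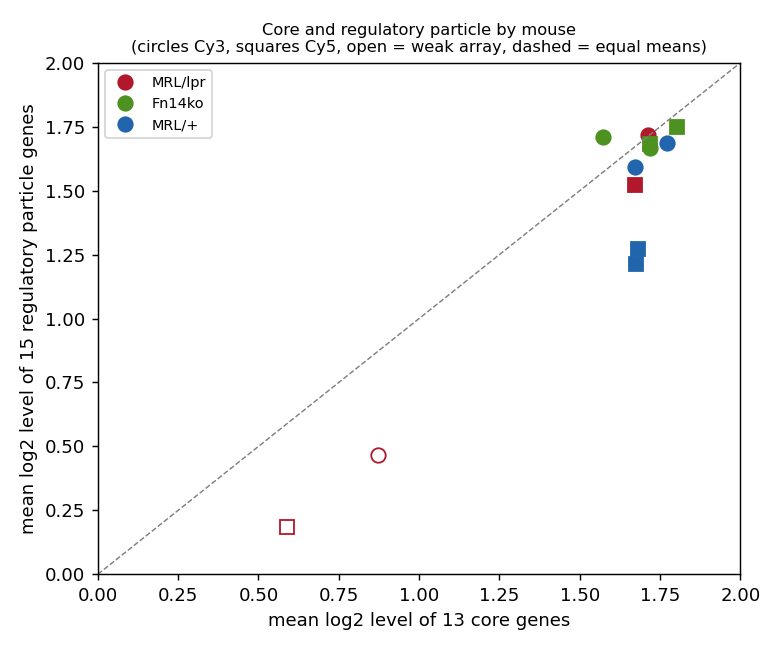
Mean log2 level of 13 core genes (x) against that of 15 regulatory particle genes (y) in each of the 12 mice; the dashed line is a guide where the numbers are equal. The weak array (open symbols) lies lowest on both axes, at 0.87 and 0.59 on x, and the MRL/+ Cy5 mice (blue squares) lie below the other 8 mice on y only, at 1.21 and 1.27.

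Of the activators, *Psme1*, the interferon-inducible PA28 alpha, was at 2.32, 1.89, 1.61 and 1.64 in MRL/lpr, 2.04, 1.73, 1.64 and 1.70 in mice labelled Fn14ko and 1.56, 2.58, 1.89 and 2.33 in MRL/+. The groups overlapped, its differences lay between −0.21 and 0.06, and none passed the threshold. It was spotted 10 times, 8 of them valid in all 12 mice. *Psme3* was at 0.175, 0.384, 1.76 and 4.73 in MRL/lpr, 0.249, 0.547, 0.278 and 0.498 in mice labelled Fn14ko and 0.248, 0.722, 0.208 and 0.607 in MRL/+. It stood out by its spread, with the Cy5 mouse of each array above the Cy3 mouse in all 6 arrays and a coefficient of variation of 119% in MRL/lpr.

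The 11 genes without a spot valid in all 12 mice come from a fit with no filter, with levels on the scale of the same medians and signals under 1% of the median set to 1%. Among them, *Psmb2*, *Psmb11*, *Psmc3ip*, *Psmc6*, *Psmd9*, *Psmd10*, *Psme4* and *Psmf1* lay below the negative controls of their channel in MRL/lpr replicate 4. The same held for *Psma8*, *Psmb11*, *Psmc3ip* and *Psmf1* in both Cy5 mice of MRL/+ and for *Psmd10* in MRL/+ replicate 2. It also held for *Psma8* and *Psmb11* in MRL/lpr replicate 2 and both Cy5 mice labelled Fn14ko, and for *Psmb2* in Fn14ko replicate 4. *Psma8*, the testis form of an alpha subunit, and *Psmb11*, the thymus form of *Psmb5*, were not well above background in any of the 12 mice. Without the weak array, *Psma8* lay between 0.01 and 0.0996 and *Psmb11* between 0.01 and 0.194, at or near the floor in Cy3. *Psmc6* and *Psmd6*, of the base and the lid, were lowest on the weak array, with 0.947, 0.699, 0.228 and 0.274 and with 2.79, 2.04, 0.296 and 0.361 in MRL/lpr, compared with 0.881 to 1.14 and with 2.01 to 2.68 in the other 8 mice. Between MRL/lpr and MRL/+ the differences were −1.11 and −1.34, or −0.25 and 0.10 without the weak array, and neither gene passed the threshold in any comparison. *Psmd9* and *Psmd10*, chaperones of base assembly, lay between 0.172 and 0.404 and between 0.132 and 0.288, and *Psmc3ip* between 0.0298 and 0.199. *Psmd14* was called in this fit too, as the only proteasome gene between MRL/lpr and MRL/+, compared with 2.46% of all genes.

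*Psmf1*, which encodes the proteasome inhibitor PI31, was at 0.153, 0.213, 0.152 and 0.213 in MRL/lpr, 0.159, 0.136, 0.139 and 0.130 in mice labelled Fn14ko and 0.239, 0.202, 0.268 and 0.176 in MRL/+. All mice labelled Fn14ko were below all MRL/+ mice, by 0.64, with an adjusted p of 0.4247. *Psme4*, the nuclear activator PA200, was at 0.123, 0.0911, 0.125 and 0.169 in MRL/lpr, at 0.0809, 0.114, 0.138 and 0.104 in mice labelled Fn14ko and at 0.123, 0.258, 0.128 and 0.201 in MRL/+, and the groups overlapped. Of the 3 probes of *Psme2b*, which share sequence with *Psme2* (PA28 beta), 2 also list an accession of *Psme2*, so the signals of the genes cannot be told apart. *Psme2b* was at 1.03, 0.854, 0.930 and 1.41 in MRL/lpr, 0.858, 0.784, 0.778 and 0.727 in mice labelled Fn14ko, and 0.747, 1.07, 0.834 and 0.936 in MRL/+, with no difference past the threshold. One probe of each kind is printed, the first without and the second with the *Psme2* accession.
Psme2b, chr11:48759630-48759689, minus strand: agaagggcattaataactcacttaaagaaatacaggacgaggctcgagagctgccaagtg
Psme2b, chr11:48759495-48759554, minus strand: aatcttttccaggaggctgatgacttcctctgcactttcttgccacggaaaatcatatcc

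*Psmb2*, a noncatalytic beta ring subunit, was 1 of the 11 genes read with no filter. It was at 0.0716, 0.296, 0.204 and 0.209 in MRL/lpr, 0.0466, 0.0625, 0.01 and 0.0254 in mice labelled Fn14ko and 0.148, 0.473, 0.203 and 0.399 in MRL/+. All mice labelled Fn14ko lay below the other 8, 1 of them at the floor, and its spot was called well above background in 2, 2 and 4 mice of the phenotypes in this order. In this fit the difference was −3.23 ± 0.54 (SE) against MRL/+ (limma adjusted p = 0.0426; exact permutation p = 0.0286), compared with 0.145% of all 29608 genes called. Its size depends on the floor, since 1 mouse labelled Fn14ko was set to it. MRL/lpr exceeded mice labelled Fn14ko by 2.56 (adjusted p = 0.0188), which with *Psmb10* made 2 proteasome genes called there, compared with 6.83% of all genes. With channels scaled to the median of all spots instead, these differences were −2.48 (adjusted p = 0.562) and 1.28 (adjusted p = 0.1733), and none of the 29608 genes was called by limma between mice labelled Fn14ko and MRL/+, and 2590 (8.75%) had an unadjusted p under 0.05. The negative controls of the Cy5 channels were at 0.0141 and 0.341 in MRL/lpr, 0.0162 and 0.0275 in mice labelled Fn14ko and 0.255 and 0.187 in MRL/+, so the levels of MRL/lpr replicate 4 and Fn14ko replicate 4 lay below them. The single probe spans 2844 bases of genome and so crosses a splice junction.
Psmb2, chr4:126361456-126364299, plus strand: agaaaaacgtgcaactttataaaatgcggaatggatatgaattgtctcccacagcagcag

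Replicate spread was smaller for proteasome genes than for all genes in each phenotype, in a comparison not matched for level. In the 8 Fn14ko and MRL/+ mice, 29 proteasome genes lay above the channel median and 4 at or below it. Over all genes these numbers were 4317 and 4547. The part of level in the smaller spread was not tested. The median coefficient of variation was 10.7% in mice labelled Fn14ko, 20.6% in MRL/+ and 46.4% in MRL/lpr, compared with 15.8%, 27.5% and 51.4% over all genes. Between MRL/lpr replicates 1 and 2 alone it was 9.33%, compared with 12.3%. The tightest genes were *Psmd2* in mice labelled Fn14ko (1.88%), *Psmd13* in MRL/+ (5.74%) and *Psmd5* in MRL/lpr (7.44%).

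The other genes of the pathway were taken as a list of 29: assembly factors, further components and partners, transcription of proteasome genes, shuttles and segregase, and ubiquitin. Of these, 19 were valid in all 12 mice, and limma called none of them in any comparison. An unadjusted p under 0.05 was reached by 7, 4 and 3 in the order used above. The other 10 were read with no filter, and 1 was called. *Ecpas* was higher in MRL/lpr than in mice labelled Fn14ko by 2.02 (limma adjusted p = 0.0417), compared with 6.83% of all genes called. It was well above background in 7 of 12 mice. When the weak array was left out, 1 of the 19 passed between MRL/lpr and mice labelled Fn14ko, 3 between MRL/lpr and MRL/+ and 7 between mice labelled Fn14ko and MRL/+, compared with 7.22%, 18.1% and 28.1% of all genes. *Adrm1*, a ubiquitin receptor of the particle, then rose in MRL/lpr by 0.90 relative to mice labelled Fn14ko and by 0.72 relative to MRL/+, whereas with all 12 mice its differences had the opposite sign, at −0.20 and −0.37. Relative to MRL/+, *Rps27a*, which encodes a ubiquitin fusion, also rose, by 1.01, and *Rad23b*, a shuttle that carries ubiquitinated proteins, fell by 0.82. Of the 7, *Usp14*, *Ube3c*, *Nsfl1c* and *Rps27a* were higher in mice labelled Fn14ko and *Pomp*, *Rad23b* and *Ubqln2* lower. For each of the higher genes, both Cy5 mice of MRL/+ lay below both Cy3 mice. *Ube3c* was at 0.232 and 0.177 in Cy5 and 0.453 and 0.396 in Cy3. *Nsfl1c* was at 1.80 and 2.00, and at 2.75 and 3.11. *Rps27a* was at 2.11 and 3.47, and at 5.17 and 5.52, levels that also enter its difference between MRL/lpr and MRL/+. *Pomp*, the core assembly chaperone, was at 3.04, 3.07, 1.36 and 0.919 in MRL/lpr, 2.95, 3.17, 2.48 and 2.98 in mice labelled Fn14ko and 3.56, 4.22, 3.93 and 4.83 in MRL/+. It was lowest on the weak array, and the difference between MRL/lpr and MRL/+ was −1.15 (adjusted p = 0.0658), or −0.43 without that array. *Usp14*, the deubiquitinase that docks on the base, was at 1.78, 1.38, 2.68 and 2.64 in MRL/lpr, at 1.95, 1.56, 1.65 and 1.63 in mice labelled Fn14ko and at 1.77, 0.313, 1.47 and 0.308 in MRL/+. It showed the pattern of *Psmd14*, the weak-array mice being highest and the MRL/+ Cy5 mice lowest, and its difference of 1.53 had an adjusted p of 0.0516. Without the weak array the difference was 1.15.

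*Nfe2l1*, the transcription factor that raises proteasome genes when the proteasome is inhibited, was measured with no filter only, its spot being well above background in 8 of 12 mice. Its level was 0.111, 0.0907, 0.101 and 0.124 in MRL/lpr, 0.118, 0.137, 0.120 and 0.110 in mice labelled Fn14ko and 0.223, 0.302, 0.235 and 0.219 in MRL/+. All 8 mice with the *Fas* mutation were below all 4 MRL/+ mice, with a difference of −1.20 between MRL/lpr and MRL/+ (adjusted p = 0.0668). The level of MRL/lpr replicate 4 lay below the negative controls of its channel. The 16 interferon-inducible genes set beside *Psmb10* and *Psme1* gave no call by limma among the 4 valid in all 12 mice, with 2, 2 and 0 at an unadjusted p under 0.05, and their summed level, with no filter, was 6.42 to 15.5 in MRL/lpr, 4.40 to 5.92 in mice labelled Fn14ko and 4.10 to 5.95 in MRL/+. Without the weak array the MRL/lpr sums were 6.42 to 8.99, and *Tap2*, a peptide transporter, and *B2m*, the light chain of MHC class I, were higher in MRL/lpr than in MRL/+, by 0.81 and 0.94, past a threshold that 18.1% of all genes passed. *Ifit1*, an antiviral gene, was at 4.16 and 6.55 on the weak array and at 0.0577 and 0.0317 in the other MRL/lpr mice. *Psmb8* and *Psmb9*, the other inducible cutting subunits, were at 0.113 to 0.628 and 0.103 to 0.254 in MRL/lpr, and at 0.152 to 0.325 and 0.0557 to 0.188 in the other 8 mice. Groups overlapped for both, and neither passed the threshold.

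Markers of cell types and regions differed between mice as well. All 11 hippocampal neuron markers have a probe, and 6 were well above background in all 12 mice. Of the 9 valid ones, 1 was higher in MRL/lpr than in MRL/+ by limma (*Zbtb20*) and 3 were higher than in mice labelled Fn14ko (*Zbtb20*, *C1ql2* and *Fibcd1*), with none lower and list medians of 0.25 and 0.53, or 0.39 and 0.99 without the weak array. *Fibcd1*, a CA1 marker, was at 0.143 and 0.0917 in MRL/lpr replicates 1 and 2 and at 1.41 and 1.48 on the weak array. It was at 0.0177 to 0.02 in mice labelled Fn14ko and 0.0266 to 0.113 in MRL/+. *Zbtb20* was likewise highest on the weak array, at 5.00 and 8.05, compared with 1.70 and 1.34 in the other MRL/lpr mice. *Wfs1*, another CA1 marker, differed by −1.21 and *Syt1*, a synaptic vesicle protein, by −1.02 between MRL/lpr and mice labelled Fn14ko, neither past the threshold. Without the weak array these differences were 0.07 and −0.30. The summed level of 10 choroid plexus markers was 9.71 to 38.9 in MRL/lpr, the lowest of them and not the highest on the weak array, 0.651 to 5.58 in mice labelled Fn14ko and 1.03 to 2.90 in MRL/+, and *Ttr*, its thyroid hormone carrier, rose by 3.33 relative to MRL/+ (limma adjusted p = 0.0399). That of 8 striatal markers was 3.69 to 5.06, 8.18 to 22.6 and 4.76 to 7.77 in the same order. That of 7 microglial markers was 6.32 to 11.9, 7.04 to 8.84 and 8.76 to 13.9, most of it from *Itgam*, and that of 8 lymphocyte markers, 1 of them not well above background in any mouse, was 1.00 to 3.68, 0.262 to 0.314 and 0.282 to 1.42. *Gfap*, the astrocyte filament protein, was higher in MRL/lpr by 2.26 relative to MRL/+ (limma adjusted p = 0.00296) and by 1.39 relative to mice labelled Fn14ko (adjusted p = 0.0329). It was the only call among the 5 valid astrocyte markers, whose median was 0.15 in both comparisons. Relative to MRL/+ the others were at −1.57 (*Slc1a3*), −0.02 (*Slc1a2*), 0.15 (*Aqp4*) and 0.23 (*Aldh1l1*). *Mog*, a myelin protein, was higher by 1.45 relative to MRL/+ (adjusted p = 0.0428), while the median of the 6 oligodendrocyte markers was 0.24. Without the weak array these differences were 0.71 and 0.33. *Hba-a1*, a globin of blood, was at 71.6 and 50.7 in MRL/lpr replicates 1 and 2 and at 4.23 to 32.2 elsewhere. Their part in the differences of the proteasome genes was not tested.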

How the data were processed

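Per the labels, RNA of 1 mouse was labelled in each dye of a 2-colour Agilent array; 4 mice of each phenotype gave 12 samples on 6 arrays. The authors deposited the scanner output of Agilent Feature Extraction 12.1: mean foreground intensity, median local background intensity and processed intensity of each spot, with its quality flags. Probe coordinates are mm9. No columns stayed without a sample.

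As in the study's methods, local background was subtracted, and a spot was kept where its foreground reached 2 times background in all 12 samples without an outlier flag, so that 8864 genes (10877 spots, 10201 probes) could be tested. Signals were scaled to the channel's median and averaged over the spots and then the probes of each gene, and log2 values were fitted with limma 3.58.1 (R 4.3.3; group and dye as terms, trended eBayes over all 12 mice), with Benjamini-Hochberg adjustment over 8864 genes and a threshold of 0.05. A random block for array used statmod 1.5.0 and a consensus correlation of 0.71. Genes with no valid spot come from a fit with no filter, in which signals were floored at 1% of the channel median. The fit was tested on simulated data. Exact permutation tests compared 4 with 4 mice; 0.0286 is their smallest p. Other steps used Python 3.11.15, numpy 2.4.6, pandas 2.3.3, scipy 1.17.1, Biopython 1.88 and matplotlib 3.10.9. Separate mice are replicates, but the mice of an array share it. The number of arrays limits the precision.

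Genes described in every mouse were the cutting and restricted core subunits, *Psmd4*, *Psmd14*, *Psme1*, the *Psme2* relative *Psme2b*, *Psme4*, *Psmf1*, and members past the threshold; *Psmb2*, *Psmc5*, *Psmc6*, *Psmd3*, *Psmd6*, *Psma5*, *Psme3* and the pathway genes with values were chosen after their values were seen. Members and lists were chosen with earlier results of these data known. Alternatives changed the filter, the background method, the scaling, the dye, the block and the mice included; those by dye, the scaling of the unfiltered fit and the test of the gap between dyes were added after seeing the data.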

Additional observations from a re-analysis of the deposited data

Results flagged for a closer look

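In 2 of 36 groups of 4 mice, the highest mouse stood apart from the other 3 by Dixon's ratio of its gap to the range of the group. *Psma8* in mice labelled Fn14ko had a ratio of 1.0, with levels of 0.01, 0.01, 0.01 and 0.0126, and *Psmb11* in the same mice had a ratio of 0.83, with levels of 0.01, 0.0120, 0.01 and 0.0217. Chance alone would single out about 1 in 20 groups, values at the floor of 0.01 fix the ratio of *Psma8*, and neither probe was well above background in any of the 12 mice.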

How the results depend on the processing

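Between MRL/lpr and MRL/+, where 3 proteasome genes passed, 0 passed with no filter, with spots well above background in all 12 mice, with loess and Aquantile scaling, with array as a random block, in Cy3 mice only, in Cy5 mice only and by the methods' t-test after Benjamini-Hochberg adjustment, and 1 passed without the weak array among spots valid in the other 10 mice, with the replicate block and with no filter on the scale of the kept spots. Between MRL/lpr and mice labelled Fn14ko, where none passed, 1 did with no filter and without the weak array, 2 with Agilent's processed signal, among the spots valid in the other 10 mice and with no filter on the scale of the kept spots, and 5 by the methods' t-test unadjusted. Between mice labelled Fn14ko and MRL/+, where none passed, 7 did without the weak array, 5 among the spots valid in the other 10 mice and by the t-test unadjusted, and 1 with no filter on the scale of the kept spots. Leaving out 1 mouse in turn gave 0 to 17, 0 to 15 and 0 calls in these comparisons; 17 and 12 came without MRL/lpr replicate 1 and 14 and 15 without MRL/lpr replicate 2, which leave the weak array 2 of 3 mice.

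The median over proteasome genes between MRL/lpr and MRL/+ (−0.52) was −0.9999 with no filter, 0.0438 with spots well above background, and −0.0302 and 0.10 without the weak array on the same spots and on those valid in 10 mice. Between MRL/lpr and mice labelled Fn14ko (−0.55) it was −1.85 with no filter, and 0.0207 and −0.0555 without the weak array; between mice labelled Fn14ko and MRL/+ (−0.08) it was 0.80, −0.17 with spots well above background, 0.16 among spots valid in 10 mice, and −0.16 to 0.0308 with 1 mouse left out. The unfiltered scaling moved the median of all genes by −0.54, −1.46 and 0.92 in these comparisons, so its values are read relative to that shift. Core minus regulatory particle medians (−0.03, 0.20 and −0.18) were 0.27 with the processed signal, 0.26 with loess, 0.37 in Cy3 mice and −0.23 to 0.18 with 1 mouse left out in the first; 0.61 with no filter on either scale, 0.0086 with normexp, 0.48 with loess, 0.39 in Cy3 mice and 0.0865 to 0.37 with 1 mouse left out in the second; and −0.64 with spots well above background in the last. The cause of these shifts was not tested. Over 25 alternatives, the direction of *Psmb10*, *Psmd14* and *Psmd5* between MRL/lpr and MRL/+ never turned, and an adjusted p under 0.05 was reached in 9, 8 and 6 of them.

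Deviations of same-numbered mice correlated at −0.395 to 0.503. Between mice labelled Fn14ko and MRL/+ these were 0.201 to 0.503, but mice of the same dye and another number correlated at 0.177 to 0.503, so number cannot be told apart from dye and was not taken as a pairing. With the replicate block none of the genes passed in that comparison or between MRL/lpr and mice labelled Fn14ko, and 1 gene passed between MRL/lpr and MRL/+, *Psmb10* at 0.0468, while *Psmd14* had 0.0513 and *Psmd5* 0.0602 as adjusted p. Slide cannot be told apart from phenotype, the weak array had low signal over background (medians of 1.93 and 1.73, compared with 4.43 to 12.6 elsewhere), the MRL/+ Cy5 channels had few spots well above background, and 1 mouse per channel leaves dye and mouse entangled on each array.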
